A study of Homo sapiens with 6 samples.

Results

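Fc receptors bind the constant part of antibodies, and 9 of their genes were followed here in K562, a human erythroleukaemia cell line, carrying either a control vector or one for the microRNA miR-543. The genes were FCGR1A, FCGR2A, FCGR2B, FCGR3A, FCGR3B, FCER1G, FCER1A, FCGRT and FCAR. They were chosen by their gene symbols together with their measured level under the control vector and the difference between the vectors. Their values below are therefore a description, with no test. A probe set with the platform's symbol was found for 8 of the 9, out of 21448 probe sets and 17687 distinct symbols. FCAR, the IgA receptor, was not analysed here. Each of the 8 had a single probe set, so no choice between rows was needed.

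The control group was K562 with a control vector, on 3 arrays, and the other group was K562 with a miR-543 vector, labelled as overexpressing that microRNA, also on 3 arrays. Both groups share the parent line, given in the labels as erythroleukaemia from bone marrow. The promoter of the vector, the time after its introduction and whether the cells were 1 clone or a pool are not given in the sources used here. The labels do not say whether the replicates were separate cultures, so the spread between them may be technical. No probe set carried the symbol of the microRNA (0 of 21448), and 3739 probe sets were unnamed here, so its own level is not reported. Signals are log2 values, on which 1 unit is a 2-fold difference. Each probe set has its own affinity, so signals of different genes are not amounts that can be set against each other. The medians of the 6 arrays lay between 5.99 and 6.01.

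Activating Fc receptors signal through a tyrosine motif called ITAM, which Src family kinases phosphorylate and which then recruits the kinase SYK. FCGR2A carries this motif in its own tail, whereas FCGR1A, FCGR3A and FCER1A depend on partner chains such as FCER1G. FCGR2B carries an inhibitory motif instead and recruits the phosphatase INPP5D. FCGRT, the neonatal receptor, belongs to a separate MHC class I-like family and recycles IgG from endosomes. In blood these receptors are best known from monocytes, macrophages, neutrophils, mast cells, NK cells and B cells. K562 cells are a customary source of the low-affinity IgG receptor CD32, the product of the FCGR2 genes.

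The overexpressed microRNA is shown first because its seed is what pairs with target mRNAs. The RefSeq entry hsa-miR-543 lies at chr14:101032033-101032054 on the plus strand of GRCh38.p14. Bases 2 to 8, the seed, are in capitals.
hsa-miR-543: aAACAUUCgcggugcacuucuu
It was the 1 mature human microRNA in that table with this seed. Sites for the seed in the receptor mRNAs were not searched, because their 3' ends were not used here.

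RefSeq windows of 300 bases, from 250 before to 50 after each annotated start, were read for the 3 receptors whose probe sets gave a high signal. They are shown because FCGR1A and FCGR2A both had a high signal and differed in how far they moved between the vectors. All are on the plus strand of GRCh38.p14. FCGR1A lies at chr1:149782444-149782743, FCGR2A at chr1:161505207-161505506, and FCGR2B has 2 starts, the first with a window at chr1:161646993-161647292 and the second with a window at chr1:161662893-161663192. Capitals mark matches on either strand to 5 motifs: the gamma-activated site TTCNNNGAA, the PU.1 core GAGGAA, the GATA site AGATAA, the CCAAT box CCAAT and the TATA box TATAAA.
FCGR1A: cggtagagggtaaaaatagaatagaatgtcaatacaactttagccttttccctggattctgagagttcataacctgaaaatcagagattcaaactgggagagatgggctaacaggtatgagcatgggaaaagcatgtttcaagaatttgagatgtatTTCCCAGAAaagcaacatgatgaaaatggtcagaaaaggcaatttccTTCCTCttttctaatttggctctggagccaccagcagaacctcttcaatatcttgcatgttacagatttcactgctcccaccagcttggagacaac
FCGR2A: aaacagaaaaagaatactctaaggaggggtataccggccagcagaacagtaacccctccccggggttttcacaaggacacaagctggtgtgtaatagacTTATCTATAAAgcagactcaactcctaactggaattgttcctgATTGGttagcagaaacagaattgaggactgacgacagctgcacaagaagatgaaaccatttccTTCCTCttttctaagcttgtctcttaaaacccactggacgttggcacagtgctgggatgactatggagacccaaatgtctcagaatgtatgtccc
FCGR2B, first start: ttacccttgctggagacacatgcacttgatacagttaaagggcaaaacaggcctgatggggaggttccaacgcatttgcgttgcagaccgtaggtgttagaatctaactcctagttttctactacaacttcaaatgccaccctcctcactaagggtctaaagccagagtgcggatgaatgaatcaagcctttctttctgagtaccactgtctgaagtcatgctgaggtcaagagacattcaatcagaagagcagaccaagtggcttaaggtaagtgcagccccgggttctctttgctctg
FCGR2B, second start: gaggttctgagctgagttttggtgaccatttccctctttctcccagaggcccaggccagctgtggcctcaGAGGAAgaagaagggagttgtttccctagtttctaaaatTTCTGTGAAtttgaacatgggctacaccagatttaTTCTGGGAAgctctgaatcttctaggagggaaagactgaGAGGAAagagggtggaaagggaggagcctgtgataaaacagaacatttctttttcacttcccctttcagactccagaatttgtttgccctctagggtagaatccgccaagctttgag

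The window of FCGR1A held 1 gamma-activated site, beginning at position -93 from the start, and 1 PU.1 core, beginning at -46. FCGR2A held no gamma-activated site but a PU.1 core beginning at -45. It also held a CCAAT box beginning at -108 and a GATA site beginning at -151, which overlaps a TATA box match beginning at -146. The longest stretch that the windows of FCGR1A and FCGR2A have in common is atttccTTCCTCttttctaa, of 20 bases, with the PU.1 core in capitals, and among 27305 genes only these 2 windows hold it. That search read only the first listed window of each gene, as written and not on the other strand. The gene copies FCGR1BP and FCGR2C had no window in it, so whether they hold the stretch was not seen. The first window of FCGR2B matched none of the 5 motifs, and the second held 2 gamma-activated sites and 2 PU.1 cores. Over the first listed windows of 27305 genes, the gamma-activated site was in 7.88%, the PU.1 core in 27.6%, the GATA site in 10.5%, the CCAAT box in 35.7%, the TATA box in 12%, and a gamma-activated site together with a PU.1 core in 2.16%. A match is a match of letters and does not show binding. The windows were poor in CpG, with 1 CpG for FCGR1A, 4 for FCGR2A and 5 for the first start of FCGR2B, beside a median of 14 over all genes. FCER1A had 0, FCGRT 7 and FCER1G 9.

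FCGR1A, the high-affinity IgG receptor CD64, had the largest difference of the 8. Its signals were 9.24, 9.58 and 9.56 with the control vector and 10.64, 10.50 and 10.81 with the miR-543 vector. The groups did not overlap, and the nearest arrays of the 2 groups were 0.92 apart on the log2 scale. The means were 9.46 ± 0.19 and 10.65 ± 0.16 (SD, n = 3), a log2 difference of 1.19 (SE 0.16), or 2.28-fold. Of all 21448 probe sets, 4 (0.0186%) had a larger positive difference. Leaving out 1 array at a time moved the difference between 1.08 and 1.26.

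The copy FCGR1BP, a pseudogene nearly identical to FCGR1A, had its own probe set. Its signals were 6.64, 7.20 and 6.90 with the control vector and 7.83, 7.82 and 7.73 with the miR-543 vector. The copy was higher on every miR-543 array, with a log2 difference of 0.88 (SE 0.16), and missed the threshold of limma over all probe sets (adjusted p = 0.0511). It passed with trend and robust settings (limma adjusted p = 0.0281), after a further quantile normalization (0.0489), with low probe sets left out (0.0211) and without control replicate 2 (0.0479), and over all its alternatives the adjusted p ran from 0.0211 to 1, the latter when tested against a log2 change of 0.5. Probes of such copies can read each other's RNA, so the copy is not a second measurement independent of FCGR1A.

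**Figure D1:**
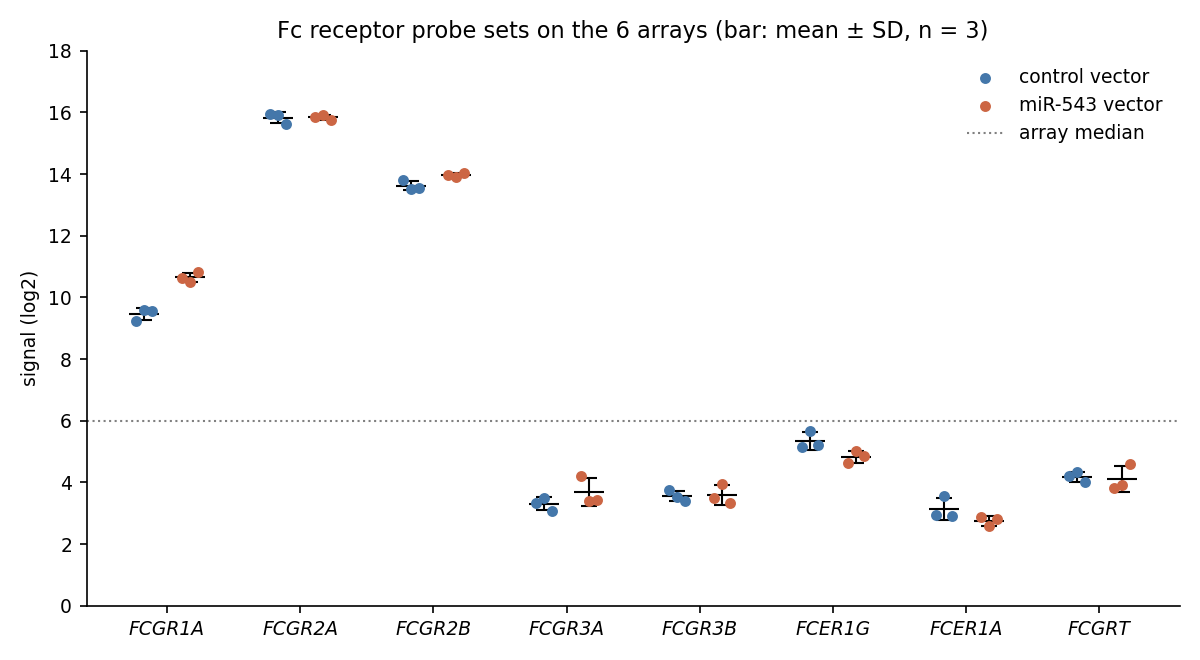
Log2 signal of the 8 measured Fc receptor genes (horizontal axis) on each of the 6 arrays (points), with the mean and SD of 3 arrays per group as bars and the median array signal as a dotted line. The FCGR1A points lie between 9.24 and 9.58 with the control vector and between 10.50 and 10.81 with the miR-543 vector, while those of FCGR2A lie between 15.63 and 15.95 in both groups.

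The low-affinity IgG receptors of the FCGR2 group gave the strongest signals of the 8 probe sets with smaller differences than FCGR1A. FCGR2A, the activating CD32 of monocytes, neutrophils and platelets, read 15.95, 15.91 and 15.63 with the control vector. With the miR-543 vector it read 15.85, 15.90 and 15.76. The groups overlapped fully, with means of 15.83 ± 0.17 and 15.84 ± 0.07 (SD, n = 3) and a log2 difference of 0.01 (SE 0.15). A signal this close to the top of the scale can be compressed, which was not tested, and 99.3% of probe sets had a lower mean.

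FCGR2B, the inhibitory CD32 of B cells and myeloid cells, read 13.80, 13.53 and 13.54 with the control vector and 13.98, 13.91 and 14.02 with the miR-543 vector. All 3 miR-543 arrays were higher, but the nearest arrays of the groups were only 0.11 apart. The log2 difference was 0.35 (SE 0.14), or 1.27-fold, between 0.30 and 0.44 when 1 array was left out at a time. The neighbouring copy FCGR2C read 14.96, 14.69 and 14.74 against 15.00, 14.97 and 14.98, a log2 difference of 0.19 (SE 0.14, limma adjusted p = 0.701). FCGR2C arose from the genes beside it and is nearly identical to FCGR2B over much of its length, so probes of either may read the other.

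The FCGR3 genes encode CD16, a receptor of NK cells and macrophages in the case of FCGR3A and of neutrophils in the case of FCGR3B. FCGR3A read 3.34, 3.49 and 3.07 with the control vector and 4.22, 3.39 and 3.44 with the miR-543 vector. The first miR-543 array was the high one, and the other two lay within the control range. The log2 difference of 0.38 (SE 0.23) fell to 0.12 when miR-543 replicate 1 was left out. FCGR3B read 3.74, 3.51 and 3.41 against 3.50, 3.95 and 3.33, a log2 difference of 0.04 (SE 0.18) with overlapping groups. Both are near-identical genes whose probes may share RNA.

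The chains of the IgE receptor had low signals in both groups. FCER1G, the common gamma chain that carries the ITAM for FCGR1A and FCGR3A as well as for the IgE receptor, read 5.15, 5.66 and 5.21 with the control vector. With the miR-543 vector it read 4.63, 5.01 and 4.86, all below the control arrays. The log2 difference was -0.51 (SE 0.18), and the nearest arrays of the groups were 0.14 apart. FCER1A, the IgE-binding alpha chain of mast cells and basophils, read 2.93, 3.56 and 2.91 against 2.87, 2.57 and 2.80. The log2 difference was -0.39 (SE 0.19), it rested in good part on control replicate 2, without which it was -0.17, and the groups were only 0.04 apart. FCGRT read 4.19, 4.33 and 4.0 against 3.82, 3.9 and 4.60, a log2 difference of -0.07 (SE 0.21) with overlapping groups.

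Of the 8 members 5 lay above 0 and 3 below, with a median log2 difference of 0.02, beside 0.01 over all probe sets. After a further quantile normalization FCGR2A lay at -0.01, so that 4 lay above 0. All miR-543 arrays were above all control arrays for 2 members, FCGR1A and FCGR2B, which held for 7.89% of all probe sets. All miR-543 arrays were below for 2 members, FCER1G and FCER1A, beside 7.5% of all probe sets. Of the 8, FCGR1A alone was called at a limma adjusted p under 0.05, beside 0.569% of all probe sets in either direction and 0.131% as rises. Since the same contrast chose the members, nothing is read from these counts.

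**Figure D2:**
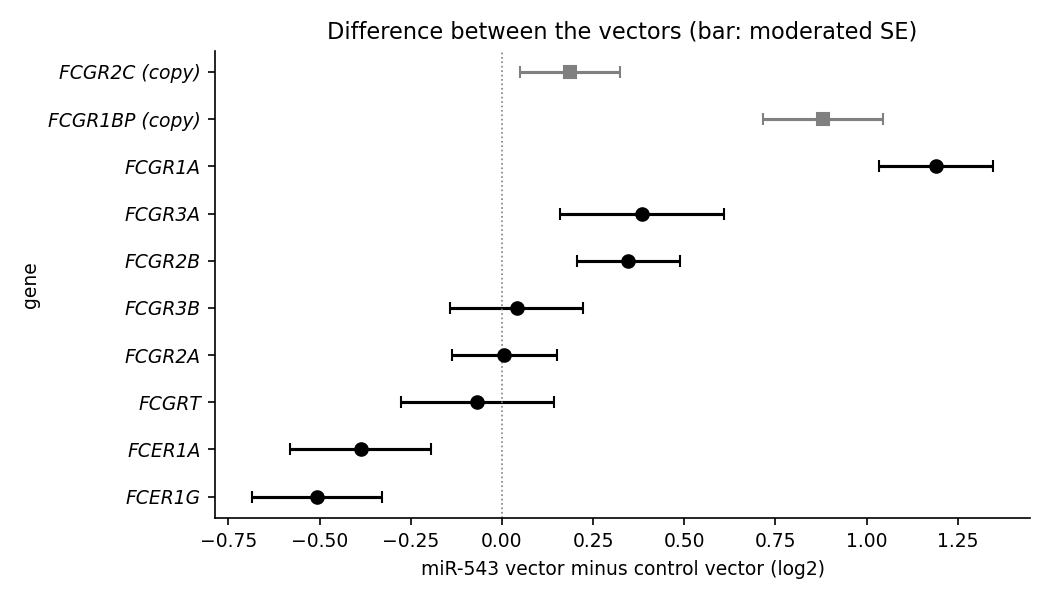
Log2 difference between the miR-543 vector and the control vector (horizontal axis) for the 8 Fc receptor genes (black circles) and for the copies FCGR1BP and FCGR2C (grey squares), with the moderated SE as bars. FCGR1A lies at 1.19 and FCER1G at -0.51, and FCGR2A and FCGR3B lie at 0.01 and 0.04.

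How far these signals stood above a background was read from genes that K562 should not express. Of 23 measured genes of unrelated tissues the control means ran from 2.79 to 7.50 with a median of 3.94, the highest being the cardiac troponin TNNI3 and the next GCG at 5.58. Of 9 measured genes in the part of chromosome 9 that K562 is known to have lost, they ran from 3.01 to 6.06. FCGR1A, FCGR2A and FCGR2B lay above all of these, and the other 5 members lay within the range of the unrelated genes. All 5 also stayed below the array medians on all 6 arrays. Differences of FCGR3A, FCGR3B, FCER1G, FCER1A and FCGRT are thus differences between signals that cannot be told from background here. The same limit holds for other genes named below with control means as low. Among them are VAV3 (4.76), ZAP70 (3.23), RNASE2 (3.38), JCHAIN (3.17), FCAMR (5.29), CD79B (5.18) and ACKR1 (3.54).

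**Figure D3:**
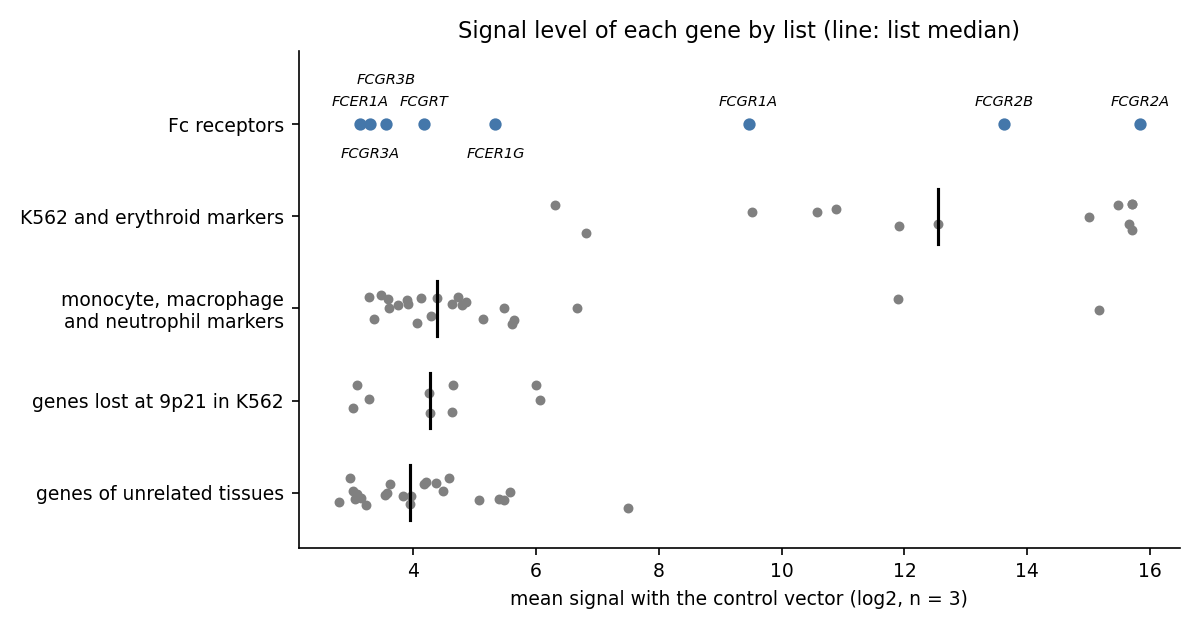
Mean log2 signal with the control vector (horizontal axis, n = 3) for the Fc receptor genes (blue, named) and for every measured gene of 4 reference lists (grey points, with the list median as a line). FCGR1A, FCGR2B and FCGR2A lie to the right of all genes of unrelated tissues, whose highest value is 7.50, and the other 5 receptors lie among them.

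The labelled line was checked by its markers. Of 13 measured erythroid genes 0 lay under the array medians on every array, with control means of 15.7 for the embryonic globin HBE1, 15.7 for the transcription factor GATA1 and 15.0 for the transferrin receptor TFRC. Of 23 monocyte, macrophage and neutrophil markers 18 lay below the array medians on all arrays, among them the monocyte receptor CD14 at a control mean of 4.63 and the granule enzyme MPO at 4.07. The lysozyme gene LYZ at 15.2 and CD68 at 11.9 were high in both groups.

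Markers of other blood cells were set beside the difference of FCGR1A. The mean over the 23 monocyte, macrophage and neutrophil markers lay between 5.16 and 5.32 on the control arrays and between 5.23 and 5.40 on the miR-543 arrays. The groups overlapped for all 23, none was called and 0 had an unadjusted limma p under 0.05, and the median log2 difference was 0.07. Values for those with the smallest p were 0.40 for the integrin ITGAM, 0.34 for MNDA and 0.30 for CLEC7A (limma adjusted p = 0.54, 0.571 and 0.569). Erythroid markers were higher for 12 of 13 genes, with a median log2 difference of 0.30 and array means of 12.4 to 12.5 against 12.6 to 12.7. All miR-543 arrays lay above all control arrays for 6 of the 13 (46.2%, beside 7.89% of all probe sets), among them KLF1 at 0.66, TAL1 at 0.41 and ALAS2 at 0.40. The near-identical globin genes HBA1 and HBA2 are also among the 6. Their probes may read the same RNA, so these counts can hold 1 signal more than once. KLF1 had a control mean of 6.81, within the range of the unrelated genes. Limma called none of the 13, with 4 at an unadjusted p under 0.05. Their part in the result for FCGR1A was not tested.

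Mast cell, basophil and eosinophil markers, which belong to the cells that carry the IgE receptor, held 1 called gene among 19 (5.26%, beside 0.569% of all probe sets). HDC, the enzyme that makes histamine, fell by 1.13 in log2 signal (SE 0.21), from 8.91, 9.25 and 8.39 to 7.81, 7.59 and 7.75 (limma adjusted p = 0.0461). The call was lost without 5 of the 6 arrays in turn (limma adjusted p = 0.113 to 0.198), all but control replicate 3, and with a replicate block (0.109), and over all alternatives the adjusted p ran from 0.00729 to 1. The sialic acid lectin SIGLEC6 and the eosinophil ribonuclease RNASE2 each had a log2 difference of 0.52 (limma adjusted p = 0.233 and 0.247). Of the 19 markers 13 lay below the array medians on all arrays, among them the mast cell protease gene CPA3 at a control mean of 3.28 and the receptor KIT at 4.66. ENPP3 at 12.6 and GATA2 at 11.4 were high in both groups. The 19 markers had a median log2 difference of -0.03. Of 17 markers of NK, T and B cells limma called 0, with 5 at an unadjusted p under 0.05 and a median of 0.03. The T cell receptor chain CD3D had a log2 difference of 0.64, the pore-forming protein PRF1 one of -0.93 and JCHAIN one of 0.68 (limma adjusted p = 0.184, 0.195 and 0.231).

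The wider pathway was followed in 8 lists with 150 measured genes outside the members. Of these 150, limma called 1 (0.667%), a fall, beside 0.569% of all probe sets, so the share is near the background. At an unadjusted p under 0.05 there were 23, of which 17 lay above 0. The miR-543 arrays were all above the control arrays for 22 of the 150 (14.7%, beside 7.89% of all probe sets) and all below for 10 (6.67%, beside 7.5%). The median log2 difference was 0.07 beside 0.01 over all probe sets. ETS1, PIK3CD, FCGR1BP and CYBB had control means of 7.05, 7.26, 6.91 and 6.29, within the range of the unrelated genes, whose highest value was 7.50. The top of that range rests on TNNI3 alone. These control means lie above that of GCG (5.58), the next highest unrelated gene, and above the lost chromosome 9 genes (up to 6.06).

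Adaptor chains come first, all with an ITAM except HCST. Several belong to other receptors, and whether any stands in for FCER1G in these cells was not tested. TYROBP, the adaptor DAP12, read 10.82, 11.29 and 11.44 with the control vector and 12.01, 11.53 and 11.84 with the miR-543 vector. The nearest arrays were close, and the log2 difference of 0.61 (SE 0.19) was not called (limma adjusted p = 0.291). CD247, the zeta chain that can pair with FCGR3A, had a control mean of 3.71 and a log2 difference of 0.18, within overlapping groups. CD79A and CD79B, the chains of the B cell receptor, had log2 differences of 0.26 and 0.23 (limma adjusted p = 0.713 and 0.665). Limma called 0 of the 7 adaptors, with 1 at an unadjusted p under 0.05.

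The kinases that act next had overlapping groups throughout. LYN, a Src family kinase at Fc receptors, read 12.12, 12.28 and 12.20 against 12.41, 12.44 and 12.28. SYK read 7.91, 8.17 and 7.61 against 7.92, 8.16 and 8.36. Of all 11 measured kinases limma called 0, and 0 had an unadjusted p under 0.05. The largest differences by p were those of ZAP70 (0.27), SRC (0.28) and FYN (0.25), with limma adjusted p-values of 0.576, 0.578 and 0.681. Among 29 adaptors and effectors limma called 0, with 3 at an unadjusted p under 0.05. PIK3CD, the leukocyte catalytic subunit of phosphoinositide 3-kinase, went from 7.24, 6.74 and 7.80 to 7.83, 8.44 and 8.27, a log2 difference of 0.92 (SE 0.26, limma adjusted p = 0.23). The exchange factor VAV3 had a log2 difference of 0.44 and the calcium channel ITPR1 one of -0.33 (limma adjusted p = 0.426 and 0.437).

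The list called the inhibitory arm gathers phosphatases, receptors, adaptors and other genes, most of them known for opposing ITAM signals, as FCGR2B does. It also holds PTPRC and PTPN11, which can promote such signals. Their log2 differences were -0.34 and -0.10, both with groups that did not overlap. Of 20 measured genes 14 lay above 0, with a median of 0.16, and the groups did not overlap upward for 7 (35%, beside 7.89% of all probe sets) or downward for 3 (15%, beside 7.5%). Limma called 0 of them, with 6 at an unadjusted p under 0.05. SIRPA, the receptor for the signal CD47 on other cells, read 5.78, 5.29 and 5.66 against 6.33, 6.30 and 6.27, a log2 difference of 0.72 (SE 0.16, limma adjusted p = 0.103). CD300A, a receptor with inhibitory motifs, had a log2 difference of 0.45, and the phosphatase PTPN12 one of -0.44 (limma adjusted p = 0.288 and 0.32). INPP5D, the phosphatase recruited by FCGR2B, had means of 7.93 and 8.22, and PTPN6 had means of 5.24 and 5.51, each with groups that did not overlap. Among the 7 genes that did not overlap upward, SIRPA (5.58), PTPN6 (5.24), UBASH3A (4.82) and LILRB3 (3.25) had control means within the range of the unrelated genes. Thus much of the 35% rests on signals as low as those. INPP5D, CD300A (8.45) and DOK1 (7.51) lay above that range, DOK1 only just.

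Effector and trafficking genes followed. Of 26 genes of the phagocytic cup and the NADPH oxidase limma called 0, with 2 at an unadjusted p under 0.05 and a median of -0.02. Both subunits of the oxidase's membrane core were among the named ones, CYBB with a log2 difference of 0.42 and CYBA with one of 0.34 (limma adjusted p = 0.407 and 0.424), beside 0.31 for the actin-severing protein GSN (0.54). The cytosolic oxidase subunits NCF1 and NCF4 had log2 differences of -0.26 and -0.06 with overlapping groups. Their control means, 4.67 and 5.01, lie within the range of the unrelated genes. Of 13 partners and routing genes of FCGRT 9 lay below 0, and limma called 0, with 3 at an unadjusted p under 0.05. RAB11FIP2, an effector of recycling endosomes, had a log2 difference of -0.56, the early endosome GTPase RAB5A one of -0.37 and the exocyst subunit EXOC1 one of 0.35 (limma adjusted p = 0.196, 0.41 and 0.422).

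Interferon gamma is a known inducer of FCGR1A, and PU.1, the product of SPI1, binds its promoter in myeloid cells. Of 29 measured genes of the interferon gamma axis and of myeloid transcription, limma called 1 (3.45%, beside 0.569% of all probe sets). The groups did not overlap upward for 6 of them (20.7%, beside 7.89%) or downward for 2 (6.9%, beside 7.5%). ETS1, a transcription factor of the same family as PU.1, fell by 0.90 in log2 signal (SE 0.14), from 7.16, 7.02 and 6.97 to 6.11, 6.24 and 6.10 (limma adjusted p = 0.019). The call was lost without any 1 of the 6 arrays (limma adjusted p = 0.0536 to 0.108) and with a replicate block (0.0747), and over all alternatives the adjusted p ran from 0.00551 to 1. IFNGR2, a chain of the interferon gamma receptor, had a log2 difference of 0.46 (limma adjusted p = 0.27). The interferon-induced GTPase GBP1 had a log2 difference of 0.81 (limma adjusted p = 0.178), from control signals of 3.25, 3.31 and 3.63, which lie within the range of the unrelated genes.

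**Figure D4:**
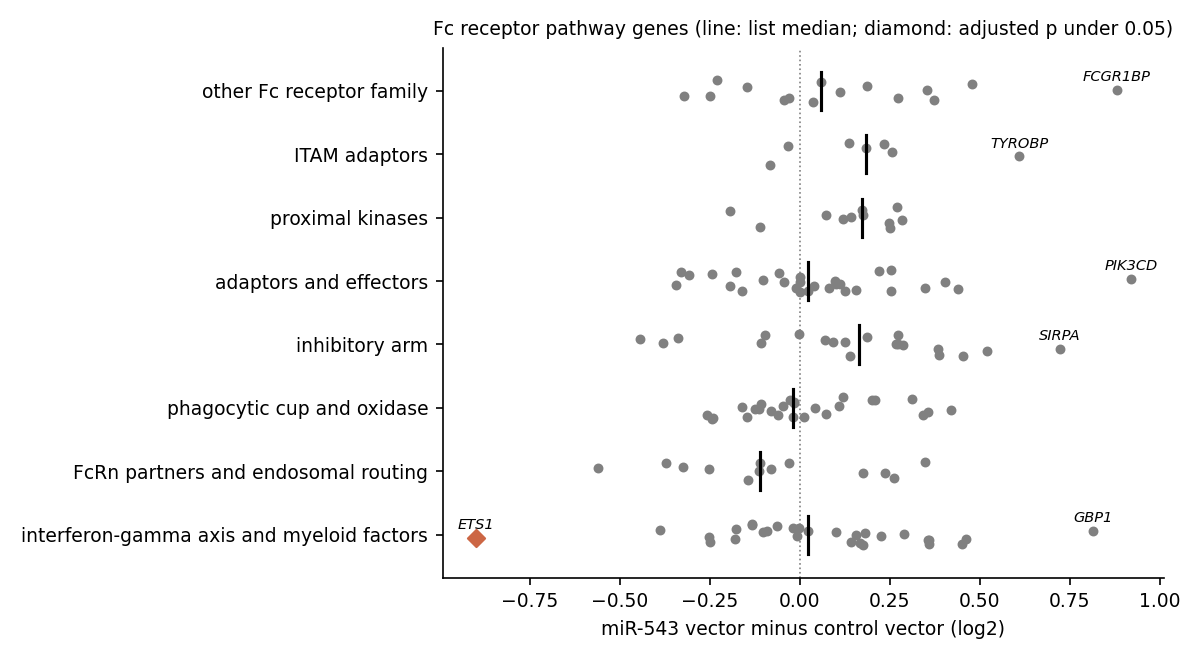
Log2 difference between the vectors (horizontal axis) for the 150 measured pathway genes outside the members, by list, with the list median as a line and genes at a limma adjusted p under 0.05 as diamonds. ETS1 at -0.90 is the 1 diamond, and FCGR1BP at 0.88 and PIK3CD at 0.92 are the points furthest to the right.

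Of 15 other measured genes of the Fc receptor family limma called 0, with 2 at an unadjusted p under 0.05, FCGR1BP and FCAMR. FCAMR, a receptor for IgA and IgM, had a log2 difference of 0.48 with overlapping groups, and the Fc receptor-like gene FCRLB had one of -0.32 (limma adjusted p = 0.468 and 0.471). The list had 9 genes above 0 and a median of 0.06, with FCGR1BP and FCGR2C, the copies of members, among those above.

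By position, 7 of the 8 measured members lie on chromosome 1 and FCGRT lies on chromosome 19. In RefSeq gene order the measured gene just before FCGR1A is the histone gene H2BC18, with a log2 difference of 0.04, and the one just after it is H3C13, with 0.08 (limma adjusted p = 0.943 and 0.912). Between FCGR2A and FCGR3A lies the heat shock gene HSPA6, which read 7.93, 7.46 and 7.66 against 8.31, 8.67 and 8.10, a log2 difference of 0.68 (SE 0.19, limma adjusted p = 0.22). On the outer sides of the FCGR2 and FCGR3 genes, CFAP126 had a log2 difference of -0.01 and FCRLA one of 0.27 (limma adjusted p = 0.993 and 0.655). The neighbours of FCER1A were ACKR1 (0.48) and OR10J1 (-0.03), those of FCER1G were ADAMTS4 (0.03) and APOA2 (-0.40), and those of FCGRT were FLT3LG (0.03) and RCN3 (-0.18). Of the 12 neighbours outside the members limma called 0, with 3 at an unadjusted p under 0.05.

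The 5 genes whose 6 array values followed those of FCGR1A most closely were found by Pearson's r, a description that mostly follows the gap between the groups. They were TMEM165, a Golgi membrane protein (r = 0.998), HSBP1L1 (0.996), the atypical cadherin FAT1 (0.992), the centriole kinase PLK4 (0.990) and PPP1R3C, which targets a phosphatase to glycogen (0.990). TMEM165 read 10.79, 11.08 and 11.07 against 11.73, 11.68 and 11.90, with the same low control array as FCGR1A. HSBP1L1 spanned only 4.34 to 4.64 over all arrays. Among the other receptors r was 0.798 for FCGR2B, 0.522 for FCGR3A, -0.117 for FCGR2A and -0.73 for FCER1G over the same 6 arrays.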

How the data were processed

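Total RNA of K562 cells was measured on 6 single-colour arrays, 3 for each vector, and sample titles gave the groups. The values are log2 signals per probe set as deposited by the authors, made with Transcriptome Analysis Console 4.0 and RMA per the submitters' processing notes. The RMA variant and genome build are not given in the sources used here. Symbols came from the platform annotation (17709 probe sets with 1 symbol, 3739 unnamed here), and gene order and sequences from RefSeq GRCh38.p14. 0 columns of other samples were present.

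All 21448 probe sets were fitted with limma 3.58.1 in R 4.3.3 (lmFit and eBayes, no trend, filter or block). Tests were two-sided, with Benjamini-Hochberg adjustment over all probe sets and calls at 0.05. SE is the moderated SE, and SD is over 3 arrays. The fit was checked on simulated data of 21448 probe sets, where 8%, 68%, 98% and 98% of changes of 0.5, 1, 1.5 and 2 were recovered. The number of arrays limits the precision.

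Members and gene lists were chosen with earlier results of these data known, and lists were compiled from general knowledge. Named were all members, the called genes and the 3 smallest unadjusted p of each list, the nearest measured neighbours, and the 5 genes most correlated with FCGR1A. Other genes were named as checks of the cell line, as partners of a member or to show the limits of a count, after their values were seen. For the genes of unrelated tissues and of chromosome 9, used only as a background level, the smallest p were not followed up.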

Additional observations from a re-analysis of the deposited data

How the results depend on the processing

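The log2 difference of FCGR1A stayed within 1 SD of its reported value under 12 alternatives, with a range of 1.08 to 1.26 when 1 array was left out at a time and 1.19 with a replicate block. The differences of the other 7 members also moved by less than 1 SD, under the same limit. Leaving out 1 array turned the sign of FCGR2A, FCGR3B and FCGRT, which ran from -0.09 to 0.07, from -0.14 to 0.17 and from -0.31 to 0.08. FCGR3A, FCGR3B, FCER1G, FCER1A and FCGRT were removed by the filter on low probe sets, so that setting gave them no value.

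The count of called probe sets, 122, was 252 with trend and robust settings, 71 with a replicate block, 12 when tested against a log2 change of 0.5, and 34 to 59 without 1 array. The count of called pathway genes, 1 of 150, was 3 with trend and robust settings (ETS1, FCGR1BP and IFNGR2), 2 after a further quantile normalization and 2 with low probe sets left out (ETS1 and FCGR1BP both times), 0 with a replicate block, 0 against a log2 change of 0.5, and 0 to 1 without 1 array. At an unadjusted p under 0.05 limma had 22 pathway genes with the block and 2 against a log2 change of 0.5. Except for the changed sample numbers and the raised null, the cause was not tested. Deviations of same-numbered arrays correlated at 0.0948, -0.0527 and 0.0181, and those of differently numbered arrays between -0.094 and 0.0655. These values show no clear pairing by number. With 3 arrays per group they cannot tell whether same-numbered arrays shared a culture or batch, which the labels do not say.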
